A study of Homo sapiens with 9 samples.

Results

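Breast cancer stem and surface markers are 9 genes whose products are used to sort or recognise stem-like cells in breast tumours: CD44, CD24, EPCAM, PROM1, CD9, PROCR, THY1, NT5E and ALDH1A1. They were taken by gene symbol, and all 9 were found among the 56809 genes of the count table. Transcript abundance was measured by bulk sequencing of polyadenylated RNA in MDA-MB-468, an established human breast adenocarcinoma line. All 9 libraries came from 200000 cells each that carried a hairpin vector: 3 libraries with the empty plasmid pSicoR (control), 3 with the short hairpin shLMO2-1 and 3 with the short hairpin shLMO2-2. The hairpins take their name from LMO2, a LIM-domain cofactor that binds no DNA itself and joins transcription factors into complexes. The control therefore shares the vector backbone with the hairpin groups, and is not uninfected. Whether the 3 libraries of a group came from separate infections or cultures is not stated in the labels, so p-values measure the spread between these libraries, which may be technical.

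Cells with high CD44 and low CD24 at their surface, and cells with high aldehyde dehydrogenase activity, are the most used definitions of stem-like cells in breast tumours. CD44 is a receptor for hyaluronan, a sugar polymer of the extracellular matrix, and CD24 is a small, heavily glycosylated protein held in the membrane by a GPI (glycosylphosphatidylinositol) anchor. ALDH1A1 oxidises retinaldehyde to retinoic acid and is 1 of the enzymes behind that activity. EPCAM is an adhesion protein of epithelial cells, PROM1 (CD133) a protein of membrane protrusions, and CD9 a tetraspanin. PROCR binds protein C, THY1 (CD90) is a GPI-anchored protein of fibroblasts and neurons, and NT5E (CD73) is a GPI-anchored enzyme that makes adenosine from AMP outside the cell.

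Library totals lay between 15494468 and 23069454 counts, and no library was left out. LMO2 held 4, 35 and 19 counts in the control libraries, 2, 1 and 6 in shLMO2-1, and 1, 4 and 3 in shLMO2-2. Its log2 fold change against control was −2.44 in shLMO2-1 (adjusted p = 0.0907) and −3.02 in shLMO2-2 (adjusted p = 0.0441), by edgeR's quasi-likelihood test with Benjamini-Hochberg adjustment over the 14709 genes tested. The shLMO2-1 value of LMO2 became a call with no filter on low counts (−2.43, adjusted p = 0.0253), without control replicate 1 (−2.90, 0.0268) and with a replicate block (−2.30, 0.0417). The shLMO2-2 call of LMO2 was lost without control replicates 2 (adjusted p = 0.138) or 3 (0.103), shLMO2-1 replicates 1 (0.0620) or 2 (0.0625), or shLMO2-2 replicates 1 (0.132), 2 (0.102) or 3 (0.127). It was also lost under limma-voom (adjusted p = 0.0928), with only the groups compared (0.0620) and at a threshold of 0.01, so in 10 of 19 alternatives. The edgeR test with Benjamini-Hochberg adjustment gives every adjusted p below, and "called" means an adjusted p under 0.05. As a check of the labelled line, all 12 epithelial markers examined were at 62.8 CPM (a gene's count scaled to the TMM-adjusted library total) or more in each group's mean. EGFR was the highest of them, at 5471 CPM in control. PGR, the progesterone receptor gene, held no count in any library. ESR1, the other hormone receptor gene examined, averaged 5.38 CPM for control, 2.91 for shLMO2-1 and 3.38 for shLMO2-2. ERBB2 averaged 53.4, 46.4 and 47.2 CPM in the same order. Of the markers of other cells, COL3A1, LUM and PDPN (fibroblasts), CD3E, MS4A1 and LYZ (leukocytes) and EMCN (endothelium) had no count in any library. The summed level of the 10 endothelial markers, KDR the highest of them, was 12.7 to 17.9 CPM for control, 18.1 to 23.2 for shLMO2-1 and 13.9 to 16.3 for shLMO2-2. That of the 10 fibroblast markers, COL1A1 the highest of them, was 13.5 to 19.4 CPM over all libraries and that of the 11 leukocyte markers 9.94 to 16.7 CPM. In the mean of both hairpins, 5 of 12 epithelial markers were called higher, where 6.47% of all genes tested were called higher and 5.93% lower. Of 4 tested leukocyte markers, 2 were called higher and 1 lower. Called lower too were 1 of 3 tested fibroblast markers and 1 of the 2 tested hormone receptor and ERBB2 genes. The fibroblast marker FAP averaged 2.94 CPM for control, 1.81 for shLMO2-1 and 0.756 for shLMO2-2. The part of these markers in the results was not tested.

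Of the 9 marker genes, 7 passed the filter on low counts, each with at least 708 counts in every library, while PROCR and THY1 did not. In shLMO2-1 against control, 3 of the 7 were called, NT5E higher and ALDH1A1 and CD44 lower, against a background of 8.42% of all genes tested. In shLMO2-2 against control, NT5E was again called higher and ALDH1A1 lower, 2 of 7 against a background of 8.97%. In the mean of both hairpins against control, NT5E was higher and ALDH1A1 and CD44 lower, 3 of 7 against 12.4%. Between the hairpins, ALDH1A1 was higher and NT5E lower in shLMO2-2 than in shLMO2-1, 2 of 7 against 0.768%. CD24, EPCAM, PROM1 and CD9 were called in none of these comparisons. The libraries did not overlap in 4 of the 7 genes in shLMO2-1 (28.3% of all genes), in 3 of 7 in shLMO2-2 (29.9%), in 3 of 7 for all 6 hairpin libraries against control (16.7%) and in 2 of 7 between the hairpins (18.1%). Both hairpins were set against the same 3 control libraries, so their values are given side by side and are not independent. The median absolute log2 fold change of the 7 genes was 0.15 in shLMO2-1 and 0.09 in shLMO2-2, and that of all genes tested was 0.17 in each.

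**Figure D1:**
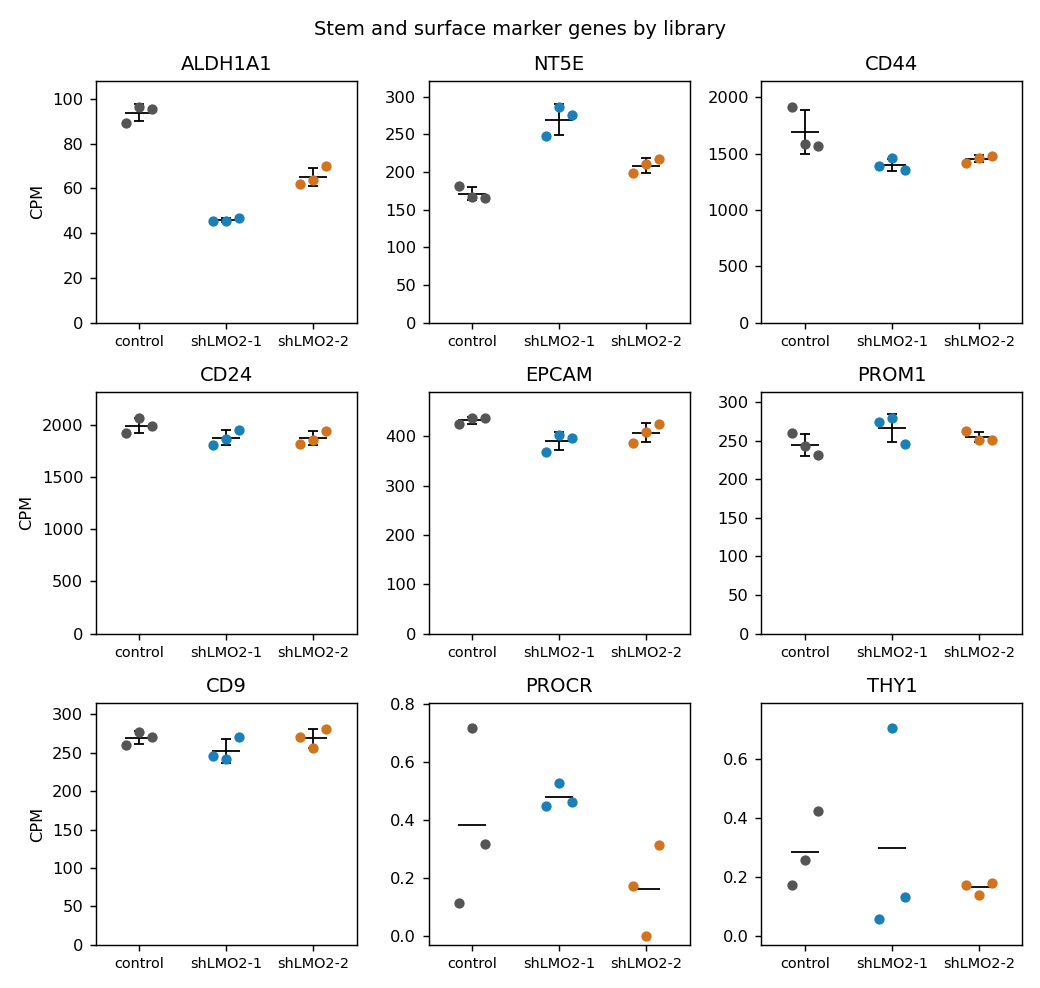
Abundance of the 9 marker genes in CPM (y axis, from 0) in the 3 control, 3 shLMO2-1 and 3 shLMO2-2 libraries (x axis); points are libraries, horizontal lines group means, and error bars the SD, which is left out for PROCR and THY1. ALDH1A1 is lower and NT5E higher in all 6 hairpin libraries than in any control, and PROCR and THY1 stay under 1 CPM.

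The promoters of the 3 called genes are shown to place them in the genome and to set their base composition side by side. Each runs from 250 bases before to 50 bases after 1 RefSeq start site on GRCh38.p14. GENCODE 29 lists 7 starts for ALDH1A1, 4 for NT5E and 37 for CD44, so other promoters are not shown. The windows lie at chr9:72953004-72953303 (ALDH1A1, minus strand), chr6:85449833-85450132 (NT5E, plus strand) and chr11:35138921-35139220 (CD44, plus strand). That of ALDH1A1 lies inside the gene's GENCODE span (72900662–73080442) and not at its 5′ end. Capitals mark every match to the motifs named after the sequences.
ALDH1A1: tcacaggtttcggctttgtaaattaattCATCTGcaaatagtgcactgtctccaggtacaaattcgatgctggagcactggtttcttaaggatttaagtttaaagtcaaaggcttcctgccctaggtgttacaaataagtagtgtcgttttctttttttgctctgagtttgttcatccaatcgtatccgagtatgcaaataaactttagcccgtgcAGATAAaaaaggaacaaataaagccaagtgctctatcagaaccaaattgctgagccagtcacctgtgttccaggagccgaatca
NT5E: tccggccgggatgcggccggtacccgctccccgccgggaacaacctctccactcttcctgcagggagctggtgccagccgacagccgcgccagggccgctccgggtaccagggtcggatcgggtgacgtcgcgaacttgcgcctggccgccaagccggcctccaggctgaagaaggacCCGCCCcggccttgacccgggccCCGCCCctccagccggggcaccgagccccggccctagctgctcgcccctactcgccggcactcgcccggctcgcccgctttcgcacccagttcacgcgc
CD44: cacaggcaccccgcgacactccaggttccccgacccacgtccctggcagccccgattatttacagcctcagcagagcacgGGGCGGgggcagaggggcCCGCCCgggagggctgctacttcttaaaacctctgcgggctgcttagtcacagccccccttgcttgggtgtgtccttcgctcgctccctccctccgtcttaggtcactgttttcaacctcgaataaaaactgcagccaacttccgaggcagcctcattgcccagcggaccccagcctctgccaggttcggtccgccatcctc
GC content was 40.3% in the ALDH1A1 window, 75.0% in that of NT5E and 63.3% in that of CD44. Both strands were searched for the E-boxes CAGCTG and CAGATG, the GATA elements AGATAA and TGATAA, the GC box GGGCGG, the AP-1 site TGANTCA and the TATA box TATAAA, and no 2 of the matches found in these windows overlapped. The ALDH1A1 window held CAGATG on the reverse strand, 222 to 217 bases before the start, a motif found in 14.7% of the 35116 RefSeq promoters of the same length. It also held AGATAA 34 to 29 bases before the start, and 16.3% of all promoters hold 1 of the GATA elements. The NT5E window held the GC box on the reverse strand at 72 to 67 and at 49 to 44 bases before the start. The CD44 window held it at 170 to 165 bases on the forward and at 152 to 147 bases on the reverse strand, and 45.0% of all promoters hold it. A match is a run of letters and not a measured site. Of the 9 genes, 7 were matched by symbol to RefSeq promoters, and EPCAM and THY1 were not matched.

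ALDH1A1 showed the largest change among the 7 tested marker genes, and its level differed between all 3 groups. It spans 72900662–73080442 on the minus strand of chromosome 9 (GENCODE 29, GRCh38) and overlaps CYP1D1P, a pseudogene on the opposite strand, so some of its counts could belong there. Control libraries 1 to 3 were at 89.4, 96.4 and 95.4 CPM, shLMO2-1 libraries at 45.5, 45.3 and 46.7 CPM, and shLMO2-2 libraries at 62.1, 63.6 and 69.9 CPM. No library of any group reached into the range of another group. Means were 93.7 ± 3.78 CPM for control, 45.8 ± 0.747 for shLMO2-1 and 65.2 ± 4.09 for shLMO2-2 (SD, n = 3). ALDH1A1 thus fell by 51.1% in shLMO2-1, a log2 fold change of −1.03 (SE 0.068, adjusted p = 2.86e-05). In shLMO2-2 it fell by 30.4%, a log2 fold change of −0.52 (SE 0.066, adjusted p = 0.00136). In bulk RNA, fewer cells with a transcript and less of it per cell cannot be told apart, here and for every gene below. Between the hairpins, shLMO2-2 exceeded shLMO2-1 by 0.51 on the log2 scale (SE 0.068, 95% interval 0.36 to 0.66, adjusted p = 0.00519). In the mean of both hairpins the log2 fold change was −0.78 (adjusted p = 2.25e-05), larger in size than that of 95.2% of the genes tested. All 4 ALDH1A1 calls held in each alternative at the threshold of 0.05 and in each fit without 1 library.

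Aldehyde dehydrogenases other than ALDH1A1 were mostly not called. Of 18 further family members listed, 16 were tested. In the mean of both hairpins, ALDH4A1 and ALDH3B1 rose and ALDH9A1 fell, where 6.47% of all genes tested rose and 5.93% fell. ALDH1A3, which makes retinoic acid like ALDH1A1 and is a family member often tied to the activity assay in breast tumours, had group means of 359 (control), 374 (shLMO2-1) and 370 CPM (shLMO2-2). Its log2 fold change in the mean was 0.05 (95% interval −0.19 to 0.30, adjusted p = 0.811). The third retinaldehyde enzyme, ALDH1A2, was near 4 CPM, with a log2 fold change of −0.13 (adjusted p = 0.698). ALDH4A1, a mitochondrial enzyme of proline breakdown, rose by 0.40 in the mean (adjusted p = 0.016), with 116 ± 17.6 CPM for control, 157 ± 4.92 for shLMO2-1 and 149 ± 10.8 for shLMO2-2. ALDH3B1 rose by 0.55 in the mean (adjusted p = 0.0276), at 8.01 ± 1.07, 13.2 ± 2.39 and 10.4 ± 0.871 CPM in the same order. ALDH3B1 was called in shLMO2-1 (0.72, adjusted p = 0.0192) but not in shLMO2-2 (0.37, 0.168), and the hairpins were not called apart (0.450). ALDH9A1, an enzyme of carnitine and GABA synthesis, changed by −0.44 in the mean (adjusted p = 0.0105) and was called in shLMO2-2 (−0.65, adjusted p = 0.00461) but not in shLMO2-1 (−0.23, adjusted p = 0.213), and shLMO2-2 and shLMO2-1 were not called apart (adjusted p = 0.124). Without control replicate 1, ALDH9A1 was called in shLMO2-1 too (−0.34, adjusted p = 0.0262). ALDH3B2, named after its values were seen, rose by 0.38 in shLMO2-2 (adjusted p = 0.0133) and differed between the hairpins by 0.41 (adjusted p = 0.0362), but was not called in the mean. The median log2 fold change of the 16 was 0.05 in the mean, against −0.00 over all genes. All 3 calls of the mean were lost without control replicate 3, where the adjusted p was 0.0526 for ALDH4A1, 0.0739 for ALDH3B1 and 0.0591 for ALDH9A1. ALDH3B1 also lost its call without control replicate 2 (0.0931), shLMO2-2 replicate 2 (0.0516) or shLMO2-2 replicate 3 (0.0575).

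**Figure D2:**
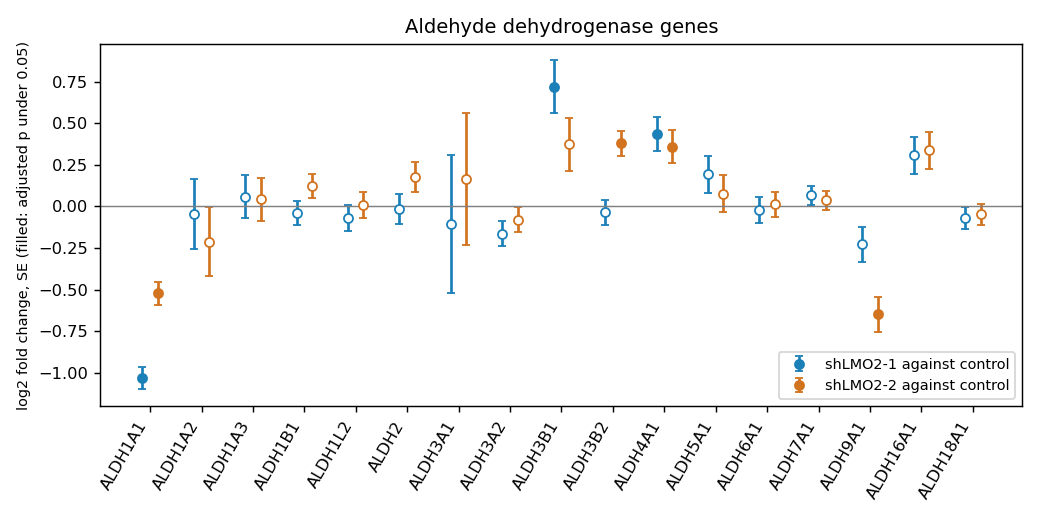
Log2 fold change against control (y axis) of ALDH1A1 and the 16 other tested aldehyde dehydrogenase genes (x axis) in shLMO2-1 (blue) and shLMO2-2 (orange), with the SE as error bars; filled points had an adjusted p under 0.05. ALDH1A1 is at −1.03 and −0.52, and the other genes lie at both sides of 0.

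NT5E moved the opposite way to ALDH1A1, and again more in shLMO2-1 than in shLMO2-2. It lies on chromosome 6 at 85449584–85495791 (plus strand) and overlaps no other annotated gene. Control libraries 1 to 3 were at 181, 167 and 165 CPM, shLMO2-1 libraries at 247, 286 and 275 CPM, and shLMO2-2 libraries at 198, 210 and 217 CPM. The 3 groups did not overlap, and shLMO2-2 lay between the other groups. Means were 171 ± 8.68 CPM for control, 270 ± 20.2 for shLMO2-1 and 208 ± 9.61 for shLMO2-2 (SD, n = 3). NT5E rose by 0.66 on the log2 scale in shLMO2-1 (SE 0.071, adjusted p = 0.000414) and by 0.29 in shLMO2-2 (SE 0.071, adjusted p = 0.0327). The difference between the hairpins was −0.37 (SE 0.071, 95% interval −0.53 to −0.22, adjusted p = 0.0396). The calls of shLMO2-1 and of the mean (0.47, adjusted p = 0.00116) held in each alternative at the threshold of 0.05. The shLMO2-2 call was lost without control replicate 2 (0.27, adjusted p = 0.0728), control replicate 3 (0.26, 0.108) or shLMO2-2 replicates 1 (0.31, 0.0539), 2 (0.27, 0.113) or 3 (0.25, 0.125). It was also lost under total-count scaling (0.24, adjusted p = 0.0527) and with only the 2 groups fitted (0.28, 0.0534). The difference between the hairpins was lost without control replicate 2 (adjusted p = 0.055), control replicate 3 (0.0731), shLMO2-1 replicates 2 (0.235) or 3 (0.112), or shLMO2-2 replicates 1 (0.169), 2 (0.160) or 3 (0.108).

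NT5E acts at the end of a chain of surface enzymes that turn ATP into adenosine, and 22 further genes of that chain and of adenosine uptake and sensing were examined. Of the 17 tested, DPP4 and ADA were called higher and ENPP1 lower in the mean of both hairpins, that is 3 of 17 against 12.4% of all genes, with a median log2 fold change of 0.05 over the 17. DPP4 (CD26), a surface peptidase that also binds adenosine deaminase, held 57, 65 and 54 counts in the control libraries, 214, 205 and 148 in shLMO2-1, and 129, 151 and 167 in shLMO2-2. All 6 hairpin libraries were above all controls, with means of 3.16 ± 0.268 CPM for control, 11.3 ± 1.31 for shLMO2-1 and 6.71 ± 0.982 for shLMO2-2. DPP4 rose by 1.83 in shLMO2-1 (SE 0.165, adjusted p = 0.000143) and by 1.08 in shLMO2-2 (SE 0.166, adjusted p = 0.00328). As in NT5E the value in shLMO2-2 was the smaller, but at −0.75 the hairpins were not called apart (adjusted p = 0.0557). ENPP1, which splits ATP into AMP and pyrophosphate, held 33 to 50 counts in control, 8 to 19 in shLMO2-1 and 21 to 30 in shLMO2-2, and changed by −1.31 in the mean (adjusted p = 0.0151). ENPP1 was called in shLMO2-1 (−1.59, adjusted p = 0.0229) but not in shLMO2-2 (−1.04, 0.0816), and the hairpins were not called apart (0.702). Without control replicate 2 its call in the mean was lost (−1.20, adjusted p = 0.0589). ADA, adenosine deaminase, stood at the threshold in the mean (0.37, adjusted p = 0.04997). That call was lost in 8 of the 9 fits without 1 library (adjusted p from 0.0689 to 0.137), all but that without shLMO2-1 replicate 2. ADA was called in shLMO2-2 (0.49, adjusted p = 0.0346) but not in shLMO2-1 (0.25, 0.258), whose libraries overlapped the controls. The shLMO2-2 call of ADA was lost without control replicates 1 (0.0787) or 3 (0.0828). Leaving out shLMO2-2 replicates 1 (0.0667), 2 (0.0820) or 3 (0.128) lost it too. The hairpins were not called apart in ADA (0.24, adjusted p = 0.547).

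CD44 was lower in all 6 hairpin libraries than in every control, by less than the other called genes. CD44 lies on chromosome 11 at 35138870–35232402 (plus strand), overlapping CD44-AS1 on the opposite strand and AL133330.1 in an intron, which could share its counts, and a gene count does not separate its splice forms. LMO2 is on the same chromosome, with a gap of 1.25 Mb and 18 annotated genes between them. Control libraries 1 to 3 were at 1914, 1586 and 1566 CPM, shLMO2-1 libraries at 1389, 1461 and 1352 CPM, and shLMO2-2 libraries at 1419, 1463 and 1481 CPM. Control replicate 1 stood above the other 2 controls, of which the lower, at 1566 CPM, was still above the highest hairpin library, at 1481 CPM. Means were 1689 ± 196 CPM for control, 1401 ± 55.1 for shLMO2-1 and 1455 ± 31.8 for shLMO2-2 (SD, n = 3). In shLMO2-1 CD44 changed by −0.27 (SE 0.073, adjusted p = 0.0449), and in shLMO2-2 by −0.22 (SE 0.073, adjusted p = 0.0936), which did not pass except with no filter on low counts (−0.21, adjusted p = 0.0385). The mean of both was −0.24 (SE 0.063, adjusted p = 0.0294), and the hairpins differed by 0.05 (95% interval −0.11 to 0.22, adjusted p = 0.879). Without control replicate 1 the changes were −0.18 in shLMO2-1 (adjusted p = 0.0392), −0.12 in shLMO2-2 (0.140) and −0.15 in the mean (0.0428). The shLMO2-1 call was lost in 10 of 19 alternatives. Among them were the fits without control replicate 3 (adjusted p = 0.0502), without shLMO2-1 replicates 1 (0.116), 2 (0.087) or 3 (0.144), and without shLMO2-2 replicates 1 (0.0641), 2 (0.0757) or 3 (0.0624). The call of the mean was lost in 5 of 18 alternatives, 4 of them the fits without shLMO2-1 replicates 1 (0.0544) or 3 (0.0574) or shLMO2-2 replicates 1 (0.0566) or 2 (0.0601).

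CD44 is tied to the actin skeleton by ezrin, radixin and moesin, and 20 genes for its ligands, linkers and splicing were examined. Of 15 tested, 3 fell and none rose in the mean of both hairpins, where 5.93% of all genes fell and 6.47% rose, and their median log2 fold change was 0.06. MSN (moesin), the clearest of them, was at 529, 568 and 557 CPM in the control libraries, 439, 478 and 450 CPM in shLMO2-1, and 408, 419 and 409 CPM in shLMO2-2. Its groups did not overlap, and it fell by 0.27 in shLMO2-1 (adjusted p = 0.012) and by 0.42 in shLMO2-2 (adjusted p = 0.00147) on the log2 scale. The shLMO2-1 call of MSN was lost without shLMO2-1 replicate 1 (−0.25, adjusted p = 0.0536). EZR (ezrin) fell by 0.22 in the mean (adjusted p = 0.0209) and HMMR, a hyaluronan receptor that also acts at the mitotic spindle, by 0.29 (adjusted p = 0.0239). EZR was called in shLMO2-1 (−0.23, adjusted p = 0.0449) and just missed in shLMO2-2 (−0.22, 0.0513). Its shLMO2-1 call was lost in 11 of 19 alternatives, and a call in shLMO2-2 was gained in 6. HMMR was called in shLMO2-2 (−0.33, adjusted p = 0.0343) but not in shLMO2-1 (−0.25, 0.0913). Its shLMO2-2 call was lost in 6 of 19 alternatives. With DESeq2 (0.0499) or a replicate block (0.0259), HMMR was called in shLMO2-1. The hairpins were not called apart in EZR (adjusted p = 0.980) or HMMR (0.834). Without control replicate 3 both calls of the mean were lost, at 0.0626 for EZR and 0.0759 for HMMR. HMMR lost that call without control replicate 2 as well (0.0532).

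CD24 was the most abundant of the 9 genes and was not called in any comparison. It lies on chromosome 6 at 106969831–106975627 (minus strand). Its pseudogene copies listed in the table held no count, but reads of near-identical copies could be divided in the authors' estimates. Control libraries were at 1922, 2066 and 1989 CPM, shLMO2-1 libraries at 1811, 1861 and 1953 CPM, and shLMO2-2 libraries at 1816, 1858 and 1944 CPM. The groups overlapped, with log2 fold changes of −0.09 in each hairpin (adjusted p = 0.319 in shLMO2-1 and 0.302 in shLMO2-2). The 95% interval was −0.20 to 0.02 in both, and that of the difference between hairpins was −0.11 to 0.11. Under total-count scaling alone, CD24 became a call in shLMO2-2 (−0.14, adjusted p = 0.0434) and in the mean (−0.13, 0.0233).

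The ratio of CD44 to CD24, often used to describe stem-like cells, is a description here and was not tested. On the log2 scale of the counts it was −0.01, −0.38 and −0.34 in control libraries 1 to 3, −0.38, −0.35 and −0.53 in shLMO2-1, and −0.36, −0.34 and −0.39 in shLMO2-2. Control replicate 1 alone stood near 0, and control replicates 2 and 3 lay within the range of the hairpin libraries. Group means were −0.24 ± 0.207 for control, −0.42 ± 0.0959 for shLMO2-1 and −0.36 ± 0.0249 for shLMO2-2 (SD, n = 3). Without control replicate 1, the difference from control went from −0.18 to −0.06 for shLMO2-1 and from −0.12 to −0.00097 for shLMO2-2. Together CD44 and CD24 took 0.361% to 0.398% of all counts in control, 0.323% to 0.330% in shLMO2-1 and 0.324% to 0.331% in shLMO2-2. A ratio in bulk RNA does not show how many cells carry a high CD44 and a low CD24.

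EPCAM (chromosome 2, 47345158–47387601, plus strand) was not called in any comparison. Control libraries were at 424, 437 and 436 CPM, shLMO2-1 libraries at 369, 402 and 397 CPM, and shLMO2-2 libraries at 387, 409 and 425 CPM. All shLMO2-1 libraries were below all controls, while shLMO2-2 overlapped them, and such a separation was seen in 28.3% of all genes tested in shLMO2-1. The log2 fold change was −0.15 in shLMO2-1 (95% interval −0.28 to −0.02, adjusted p = 0.134) and −0.09 in shLMO2-2 (−0.21 to 0.04, adjusted p = 0.385). Total-count scaling made EPCAM a call in shLMO2-1 (−0.19, adjusted p = 0.0354) and in the mean (−0.16, 0.0265). Of 15 tested genes for EPCAM's partners and processing, of 17 listed, 1 was called in the mean, where 12.4% of all genes were, and none in either hairpin alone (8.42% and 8.97% of all genes). That gene, named after its values were seen, was ST14 (matriptase), a surface protease that cleaves EPCAM, at 0.17 (adjusted p = 0.0366), and its call was lost in 8 of the 9 fits without 1 library, all but that without shLMO2-1 replicate 1.

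PROM1 (chromosome 4, 15963076–16084378, minus strand, overlapping FGFBP2) was at 260, 243 and 231 CPM in control, 274, 279 and 245 CPM in shLMO2-1, and 262, 250.2 and 250.3 CPM in shLMO2-2. The groups overlapped, with log2 fold changes of 0.12 in shLMO2-1 (95% interval −0.03 to 0.27, adjusted p = 0.302) and 0.06 in shLMO2-2 (−0.09 to 0.20, adjusted p = 0.656). CD9 (chromosome 12, 6199715–6238271, plus strand) was at 260, 277 and 271 CPM in control, 245, 241 and 270.0 CPM in shLMO2-1, and 269.8, 256 and 281 CPM in shLMO2-2. Its groups overlapped too, with −0.10 in shLMO2-1 (95% interval −0.23 to 0.04, adjusted p = 0.40) and −0.00 in shLMO2-2 (−0.14 to 0.14, adjusted p = 0.979). Neither gene was called, and with 3 libraries a group a change within these intervals could have been missed.

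Tetraspanins such as CD9 gather other proteins into membrane domains, and 27 further tetraspanins and CD9 partners were examined. Of 23 tested, 4 rose and none fell in the mean of both hairpins, where 6.47% of all genes rose and 5.93% fell. Their median log2 fold change was 0.15, against −0.00 for all genes. TSPAN3 rose by 0.27 in the mean (adjusted p = 0.00607), with 95.9 ± 2.19 CPM for control, 111 ± 3.74 for shLMO2-1 and 121 ± 1.59 for shLMO2-2. TSPAN9 rose by 0.27 in the mean (adjusted p = 0.012) and TSPAN14, a partner of the protease ADAM10, by 0.25 (adjusted p = 0.0173). Both were called in shLMO2-1 (0.34 each, adjusted p = 0.0101 and 0.0109). In shLMO2-2 neither was (0.19 and 0.16, adjusted p = 0.087 and 0.155), and the hairpins were not called apart in either gene. TSPAN1, named after its values were seen, rose by 0.41 in the mean (adjusted p = 0.0449). The exosome markers CD63 and CD81 were not called in the mean, at 0.14 (adjusted p = 0.325) and 0.13 (0.323). Without control replicate 3 the count of 4 fell to 2, and TSPAN9 (0.0617) and TSPAN14 (0.0685) lost their calls in the mean. TSPAN14 lost it without control replicate 2 (0.0516) or shLMO2-2 replicate 2 (0.05001) as well, and the shLMO2-1 call of TSPAN3 (0.21, adjusted p = 0.0432) was lost in each of the 9 fits without 1 library.

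PROCR (chromosome 20, 35172073–35216240, plus strand) and THY1 (chromosome 11, 119417378–119424985, minus strand) were barely detected. PROCR held 2, 14 and 6 counts in the control libraries, 8, 9 and 7 in shLMO2-1, and 4, 0 and 7 in shLMO2-2. The most counts in any library, 14, made 0.718 CPM with an exact 95% Poisson interval of 0.392 to 1.20 CPM, which covers counting error only. THY1 held 3, 5 and 8 counts in control, 1, 12 and 2 in shLMO2-1, and 4, 3 and 4 in shLMO2-2. Libraries of 1 group differed as much as the groups did. Two-sided exact permutation tests of CPM over all 6 hairpin libraries against the 3 controls gave p = 0.75 for PROCR and p = 0.81 for THY1. With no filter on low counts, edgeR called neither gene in any of the 4 comparisons (lowest adjusted p = 0.505, for PROCR in shLMO2-2). In CPM the PROCR libraries of the hairpins did not overlap, though in counts both groups held a library with 7. An exact test of 3 against 3 libraries cannot call such a separation, as its p cannot go below 0.1. Such non-overlap between the hairpins was seen in 18.1% of the genes tested. At this depth no change in either gene was detected, which does not show that there was none. Both genes overlap others on the opposite strand, PROCR with MMP24OS and THY1 with USP2-AS1, and are uncertain to that extent.

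Of 16 genes of the protein C and thrombin system to which PROCR belongs, 7 were tested, and 1 rose and 1 fell in the mean (12.4% of all genes were called). F2R, the thrombin receptor PAR1, rose by 0.43 in the mean (adjusted p = 0.0182), with 20.8 ± 2.12 CPM for control, 30.8 ± 2.27 for shLMO2-1 and 25.6 ± 3.05 for shLMO2-2. F2R was called in shLMO2-1 (0.56, adjusted p = 0.0129) but not in shLMO2-2 (0.30, 0.128). F8, coagulation factor VIII, fell by 0.42 in the mean (adjusted p = 0.0256). F8 was called in shLMO2-2 (−0.46, adjusted p = 0.0394) but not in shLMO2-1 (−0.37, 0.088). The shLMO2-2 call of F8 was lost in 10 of 19 alternatives, and with a replicate block F8 was called in shLMO2-1 (adjusted p = 0.0461). Neither gene was called between the hairpins. TFPI2, a protease inhibitor, was called in shLMO2-1 (0.58, adjusted p = 0.0456) and not in shLMO2-2 (−0.14, adjusted p = 0.629), with −0.73 between the hairpins (adjusted p = 0.0737). The shLMO2-1 call of TFPI2 was lost in 8 of the 9 fits without 1 library (0.44 to 0.60, adjusted p from 0.0672 to 0.140), all but that without control replicate 1, where TFPI2 was called in the mean as well (0.45, adjusted p = 0.0174). It was also lost under total-count scaling (0.0666) and with only the groups compared (0.101). In the mean, F2R lost its call without control replicate 1 (adjusted p = 0.0540). F8 lost that of the mean without control replicates 1 (0.0524) or 3 (0.122), shLMO2-1 replicate 2 (0.0552) or shLMO2-2 replicate 2 (0.0559).

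**Figure D3:**
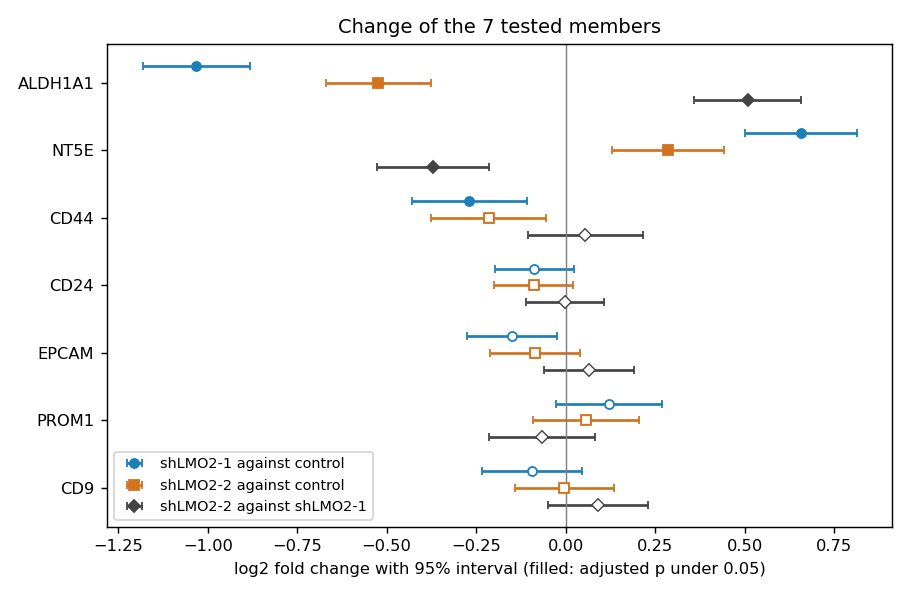
Log2 fold change (x axis) with its 95% interval for the 7 tested marker genes (y axis) in shLMO2-1 against control (circles), shLMO2-2 against control (squares) and shLMO2-2 against shLMO2-1 (diamonds); filled symbols had an adjusted p under 0.05. ALDH1A1 and NT5E are called in all 3 comparisons and in opposite directions, CD44 in shLMO2-1 only, and the other 4 genes in none.

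Levels of different genes were compared per length, as CPM per kilobase of merged exons, in the control libraries. This length joins the exons of all annotated transcripts, 39 over 10004 bases for CD44 and 6 over 2519 bases for EPCAM. Which transcripts the cells used was not measured, so the order of genes could depend in part on the annotation. CD24 was highest at 643 ± 23.2 (SD, n = 3), rank 28 of 14667 tested genes with a length. EPCAM followed at 172 ± 2.85 and CD44 at 169 ± 19.5, which did not differ beyond their spread. CD9 was at 64.7 ± 2.01, NT5E at 37.7 ± 1.92, ALDH1A1 at 32.9 ± 1.33 and PROM1 at 32.9 ± 1.92, the last 2 again not apart. PROCR was at 0.226 ± 0.181 and THY1 at 0.0480 ± 0.0214 on the same scale. Between libraries of a group, the coefficient of variation of the 7 tested genes ran from 1.63% for ALDH1A1 in shLMO2-1 to 11.6% for CD44 in control.

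For each tested marker gene the 3 genes most like it were those with the highest Pearson's r of log2(CPM + 0.5) over the 9 libraries, among 11030 genes. These r values describe libraries in 3 groups that share their treatment, and carry no test. Genes picked in this way follow the member's order of groups by choice, so their fold changes are given without a test. ALDH1A1 was most like CRISP3 (r = 0.987), CLGN (0.985) and MYEOV (0.983). CRISP3, a cysteine-rich secretory protein, was at 108, 112 and 108 CPM in the control libraries, 45.2, 44.1 and 45.5 CPM in shLMO2-1, and 75.7, 77.1 and 78.2 CPM in shLMO2-2. Its log2 fold change was −1.28 in shLMO2-1 and −0.50 in shLMO2-2. CLGN, a chaperone of the endoplasmic reticulum, had −0.88 and −0.47, and MYEOV −0.59 and −0.31.

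NT5E was most like MOB3A (r = 0.994), MXRA7 (0.985) and FBLIM1 (0.980). MXRA7 was at 9.04, 8.64 and 8.62 CPM in control, 14.1, 17.9 and 16.7 CPM in shLMO2-1, and 10.8, 10.4 and 11.3 CPM in shLMO2-2. Its log2 fold change was 0.89 in shLMO2-1 and 0.31 in shLMO2-2. That of FBLIM1, which binds filamin at cell-matrix contacts, was 0.46 and 0.20. CD44 was most like NAA25 (r = 0.992), PLS3 (0.968) and ITGAV (0.965), the last an integrin subunit. The genes most like CD24 included AKIRIN1 (0.978) and SLBP (0.957). EPCAM was most like SCD5 (0.991), DUSP1 (0.973) and MMGT1 (0.967), PROM1 like SH2B3 (0.933), CDC42BPB (0.926) and ZC3H6 (0.922), and CD9 like TMEM219 (0.956), NDUFS3 (0.948) and SDHC (0.947). Apart from CRISP3, CLGN, FBLIM1, AKIRIN1, SLBP and TMEM219, these genes overlap other annotated genes and are uncertain to that extent.

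**Figure D4:**
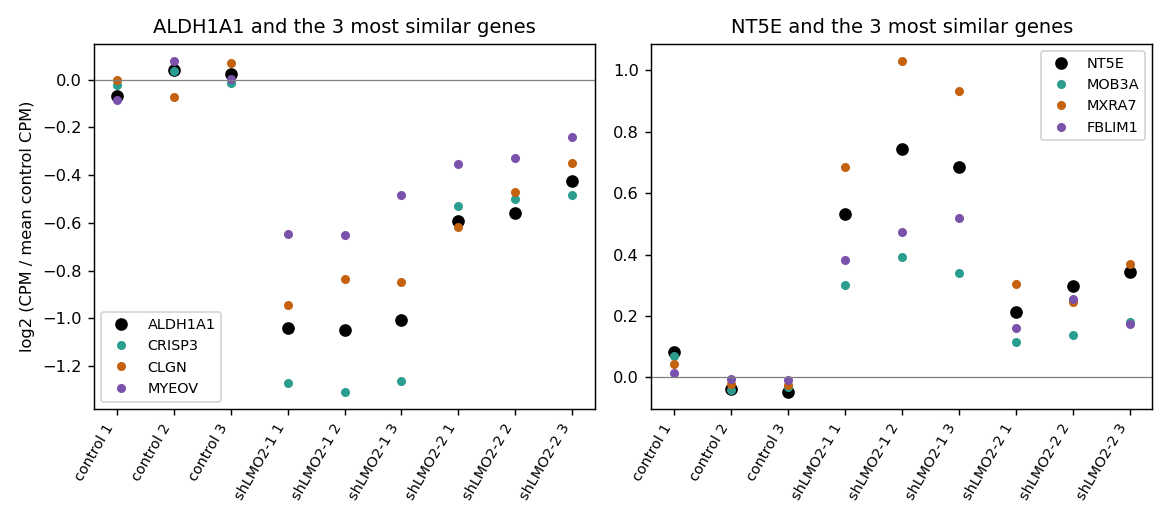
Log2 of the CPM over the mean control CPM (y axis) in each of the 9 libraries (x axis) for ALDH1A1 (left) and NT5E (right), with the 3 genes most like each; points are single libraries. In both panels the shLMO2-1 libraries lie farther from 0 than the shLMO2-2 libraries.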

How the data were processed

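Estimated counts per gene for 9 libraries were deposited by the authors as a single table of symbols. The submitters' processing notes name Salmon 0.12, DESeq2 1.22.2 and GRCh38.p12, and the use of strand is not given in the sources used here. In each library 11.7% to 12.8% of values were fractional. Dividing reads among similar transcripts can move counts between overlapping or near-identical genes.

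Counts were rounded and tested with edgeR 4.0.16 in R 4.3.3: TMM scaling, filterByExpr (minimum count 10, minimum total 15), and a quasi-likelihood fit of 3 groups over all 9 libraries. The filter kept 14708 genes, to which LMO2 was added, and 4 contrasts were adjusted by Benjamini-Hochberg over 14709 genes. CPM uses TMM-scaled totals. PROCR and THY1 were tested by exact permutation. Intervals cover 95%. The code was tested on simulated data. No 2 libraries of a group were alike within counting noise (chi-square per gene at least 5.18), so none was counted as a duplicate.

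Coordinates are from GENCODE 29, matched by symbol. The members, the gene lists and the tests were chosen with earlier results of these data known. Named in each list are up to 3 genes called in at least 1 hairpin, those ranked first by p in the averaged contrast, and for each member the 3 genes of highest correlation with a mean of at least 5 CPM. Of these and the marker genes, 2 are not reported here.

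Other settings tried were scaling by upper quartiles, by median of ratios or by totals, a filter of 10 counts in all libraries or no filter, DESeq2 1.42.0, limma-voom (limma 3.58.1), a threshold of 0.01, a replicate block, fits of only the groups compared, and leaving out each library.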

Additional observations from a re-analysis of the deposited data

Results flagged for a closer look

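Among the 7 tested marker genes, 2 differed between the hairpins by a direct test, and both moved less in shLMO2-2. ALDH1A1 was higher in shLMO2-2 than in shLMO2-1 by 0.51 on the log2 scale (edgeR adjusted p = 0.00519), with all 3 shLMO2-2 libraries above all 3 shLMO2-1 libraries. NT5E was lower in shLMO2-2 by 0.37, a log2 fold change of −0.37 (adjusted p = 0.0396), with all 3 libraries below. The LMO2 counts of the hairpin groups, 1 to 6 a library, were too low to show a difference in knockdown, and the part of LMO2 in these results was not tested.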

How the results depend on the processing

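Of 28 results for the 7 tested marker genes in 4 comparisons, 17 kept their direction and their side of the threshold in every alternative run, 6 of them calls. In 4 results a call was lost in some alternative, and in 5 a call was gained. Total-count scaling raised the marker genes called in the mean of both hairpins from 3 to 5. In shLMO2-2 the count went from 2 to 1 with only the groups compared and at an adjusted p under 0.01, and to 3 with no filter on low counts. Between the hairpins it went from 2 to 1 at an adjusted p under 0.01. Without single libraries, 2 to 3 marker genes were called in shLMO2-1, 1 to 2 in shLMO2-2, 2 to 3 in the mean and 1 to 2 between the hairpins. Per kilobase of merged exons, the CD44 to CD24 log2 ratio was −1.94 in control, −2.11 in shLMO2-1 and −2.06 in shLMO2-2, a shift that the annotated exon lengths make. Without single libraries its difference from control was −0.25 to −0.06 for shLMO2-1 and −0.19 to −0.00097 for shLMO2-2.

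Some values near 0 changed sign, and the cause was not tested. CD24 between the hairpins became 0.0089 under upper-quartile scaling and 0.0035 with no filter, and lay between −0.0312 and 0.0232 without single libraries, positive without shLMO2-1 replicate 3 or shLMO2-2 replicate 1 (0.0154). CD9 in shLMO2-2 became 0.0023 with no filter and lay between −0.0413 and 0.0226 without single libraries, positive without shLMO2-2 replicate 2, control replicate 2 (0.0169) or control replicate 3 (5.9e-04). Without single libraries TFPI2 in shLMO2-2 ranged from −0.28 to 0.0878, positive without control replicate 1, and LMO2 between the hairpins from −1.002 to 0.45, positive without shLMO2-1 replicate 3.

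Libraries with the same replicate number did not deviate together in every pair (mean correlation 0.195, from −0.097 to 0.389, against −0.098 for other pairs, from −0.41 to 0.27). The numbers were not taken as pairs in the main fit. This check cannot decide whether they are, as deviations of 3 libraries from their group mean cancel out and 1 can stay near it. The pairs numbered 1 or 3 lay between 0.213 and 0.389 and those numbered 2 between −0.097 and 0.0505, a hint from the data and not the design. With a replicate block, 3, 2, 3 and 2 marker genes were called in shLMO2-1, shLMO2-2, the mean and between the hairpins, as without it. Over all genes the block gave 2214, 2377, 3024 and 257 calls, against 1239, 1320, 1823 and 113. With no filter on low counts, 378 genes were called between the hairpins. The fit of only the groups compared was not run for the mean of both hairpins. None of the 8 gene-list counts in the mean stayed within 1.5 times under every alternative, with 0 to 4 aldehyde dehydrogenases (3 as reported), 1 to 5 CD44-linked genes (3), 0 to 1 EPCAM partners (1), 1 to 7 tetraspanin genes (4), 0 to 3 protein C genes (2), 1 to 4 ATP and adenosine genes (3), 2 to 8 other surface markers (4) and 6 to 16 GPI-anchored proteins (10). Depth limits PROCR, THY1 and LMO2.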

Other observations

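Other surface markers used to enrich stem-like or progenitor cells were mostly not called. Of 21 tested, of 30 listed, 3 rose and 1 fell in the mean of both hairpins, where 6.47% of all genes rose and 5.93% fell. ENG (endoglin, CD105), a co-receptor of the TGF-beta family, was at 19.7, 20.7 and 25.1 CPM in control, 34.8, 37.3 and 31.1 CPM in shLMO2-1, and 35.0, 34.1 and 33.0 CPM in shLMO2-2. All 6 hairpin libraries were above all controls, and ENG rose by 0.66 in shLMO2-1 and 0.64 in shLMO2-2 (edgeR adjusted p = 0.00478 and 0.00525). ANPEP (CD13), a surface aminopeptidase, rose by 0.31 in the mean (adjusted p = 0.00466). ANPEP was called in shLMO2-2 (0.42, adjusted p = 0.0028), but in shLMO2-1 (0.21, 0.0602) only with DESeq2 or a replicate block. L1CAM, an adhesion protein of neurons, rose by 0.78 in the mean (adjusted p = 0.0131). It was called in shLMO2-2 (1.17, adjusted p = 0.0038) but not in shLMO2-1 (0.39, 0.244), whose libraries overlapped the controls. Neither gene was called between the hairpins. CD47, named after its values were seen, fell by 0.20 in the mean (adjusted p = 0.043).

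CD24, NT5E and THY1 are held by GPI anchors, and of 31 other GPI-anchored proteins tested, of 40 listed, 6 rose and 4 fell in the mean, against the same shares of all genes (12.4% called). BST2 (tetherin), an interferon-induced protein that holds enveloped viruses at the cell surface, averaged 14.8 ± 1.69 CPM for control, 32.4 ± 1.79 for shLMO2-1 and 44.0 ± 2.06 for shLMO2-2 (SD, n = 3), with no overlap between groups. It rose by 1.13 in shLMO2-1 (adjusted p = 0.00012) and by 1.57 in shLMO2-2 (adjusted p = 1.66e-05), and the hairpins' difference of 0.44 did not pass (adjusted p = 0.0661). FOLR1, a folate receptor, changed by −1.53 in shLMO2-1 and −1.42 in shLMO2-2 (adjusted p = 0.00158 and 0.00232), from 6.56 ± 0.883 CPM in control (SD, n = 3). LY6D changed by −0.92 in the mean (adjusted p = 0.00107). The calls of ENG, ANPEP, L1CAM, BST2, FOLR1 and LY6D in the mean held in each fit without 1 library.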
